A study of Homo sapiens with 21 samples.

Results

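The regions described here are exon bins at the 3′ ends of human protein-coding genes, counted in K562, an established erythroleukaemia line that came from a patient with chronic myeloid leukaemia. An exon bin is a stretch of exon that a fixed set of a gene's transcripts share, so that every annotated transcript start, splice site or end opens a new bin. Bins were kept where the identifier named a single gene, the gene was protein-coding in GENCODE 29 and had 10 or more bins, the bin lay in the last 10% of the gene's bins in transcript direction, and its mean count over the 12 libraries was 10 or more. That rule left 12047 bins of 685251 in all, in 5538 genes. They are called end bins below. The last 10% of bins in the 12181 genes of that size held 35072 bins, of which 23025 lay below the minimum and 9676 of those had no count in any library. Just inside the minimum were bins of UNKL, NEBL and PGR with a mean of 10.0 counts, and just outside were bins of DYNC1H1, HIBCH and MMP17 with 9.92. The end bins were thus chosen by their mean count over all 12 libraries, so their level is a description. The share of a gene's counts that they hold was compared between groups.

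The study overexpressed each of a pair of enhancer RNAs, transcripts made by an active enhancer upstream of MYB, and asked whether exon use changed. The labels call the experiments 34kn and 34kp. Each has 3 control libraries, labelled 34knContol and 34kpContol, and 3 libraries of K562 cells overexpressing the enhancer RNA, labelled 34kn and 34kp. What the control cells carried, the overexpression vector and whether libraries of a group came from separate cultures are not given in the sources used here, so the spread behind each p-value is that between libraries and may be technical. The 9 libraries of the series that compare MYB isoforms have gene counts without bins and were not analysed here.

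The 3′ end of a messenger RNA is made by cleavage and polyadenylation. The cleavage and polyadenylation specificity factor binds a hexamer, most often AATAAA or ATTAAA in the DNA, upstream of the cleavage site, the cleavage stimulation factor binds downstream of it, and poly(A) polymerase adds the tail. Many genes hold several such sites, and the choice among them sets the length of the 3′ untranslated region and with it the sites for microRNAs and RNA-binding proteins. Proximal sites are favoured in many proliferating and transformed cells.

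These windows show the 3′ edge of end bins that hold such a hexamer, for 6 genes whose end share differed between the experiments below. Of the end bins that could be placed, 42.5% held one in their last 50 bases. Each is 30 bases of the GENCODE 29 transcript on the gene's own strand (GRCh38), with the hexamer in capitals. They lie at chr19:7958580-7958609 (ELAVL1, minus strand), chr14:67386482-67386511 (EIF2S1, plus), chr12:69274139-69274168 (CPSF6, plus), chr7:157417402-157417431 (DNAJB6, plus), chr20:45898627-45898656 (PLTP, minus) and chr17:39997926-39997955 (PSMD3, plus).
ELAVL1: tgatattttggtAATAAAtgaagtgggatc
EIF2S1: aaacttgaaagtAATAAAaatgttctttaa
CPSF6: gaattagacttcatattagcttcaATTAAA
DNAJB6: gccacctacataAATAAAacataagcatat
PLTP: aactgctgcgggAATAAAgtgctaacttgc
PSMD3: atgatttttaaacAATAAAaagttctccac
From the hexamer to the 3′ edge of the bin there were 13 bases in ELAVL1, 17 in EIF2S1, 14 in DNAJB6, 18 in PLTP and 11 in PSMD3, while in CPSF6 the hexamer was the edge itself. The CPSF6 hexamer thus does not lie upstream of that edge, and the gene runs on to chr12:69274358. The ELAVL1, EIF2S1, CPSF6, DNAJB6 and PLTP bins lie after the last coding base, and the PSMD3 bin is partly coding.

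Bins could be placed on the genome for 2681 of the 5538 genes, those whose bin number was the same in GENCODE 29, which gave 5376 end bins. Their median length was 346 bases and their median GC content 43.5%. Of these bins, 54.9% lay after the last coding base, 25.2% were partly coding and 16.9% were coding. The 3′ edge was an annotated transcript end in 84.2%. AATAAA or ATTAAA, read on the gene's strand, stood in the last 50 bases of 42.5% of end bins, against 3.50% of the 50558 other bins of the same genes with a mean count of 10 or more. Those other bins had a median length of 93 bases, and 74.8% of them were coding. Per kilobase, the median end bin held 269 counts per library and the median other bin 811. A hexamer is a match of letters and not a mapped cleavage site.

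Libraries held 36563252 to 41243796 bin counts, of which end bins took 5.89% to 7.49%. TFRC, GATA1, TAL1 and KLF1, genes of the erythroid programme, were present in every library, while the B cell gene MS4A1 and the granulocyte gene ELANE had no count and the T cell gene CD3E stayed at or below 0.816 CPM (counts scaled to a common library total). EPCAM, an epithelial gene, stood at 64.8 to 93.9 CPM, and globin genes lay in joined identifiers. In all 12 libraries the last 10% of bins held more of a gene's counts than the first 10%. 34kn control 1 stood apart at the 5′ end: the first 10% of bins held a median of 3.46% of a gene's counts there, against 2.05% and 2.36% in the other 34kn controls and 1.39% to 2.15% in the other 9 libraries. Results are therefore also given without it.

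The median gene had 15.3% of its counts in its end bins, with quartiles at 6.89% and 27.8%. In 255 genes the share was under 1% and in 415 it was over 50%. The end bin with the highest mean, 20933 counts, was bin 30 of BEST1, a chloride channel gene of the retinal pigment epithelium, where it held over 99.7% of the gene's counts in 34kn control 1. That bin lies at chr11:61964462-61965515, after the last coding base, and inside the locus of FTH1 (ferritin heavy chain, chr11:61959718-61967660), which runs on the opposite strand. Among the 5 highest end bins, that of SH3D19 (13477 counts) lies over RPS3A and that of ATG10 (9815 counts) over RPS23, both abundant ribosomal protein genes on the opposite strand. The other 2 belong to PRAME, a tumour antigen gene highly expressed in leukaemias, with 15568 counts, and to TFRC, the transferrin receptor, with 10954. Whether the authors' counting used strand is not given in the sources used here, so reads of a gene and of its opposite-strand neighbour cannot be told apart.

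Convergent neighbours touched many of the gene ends. In GENCODE 29, 1291 of the 5538 genes (23.3%) had an exon of an opposite-strand gene over the last 10% of that annotation's bins, and for 936 of these the neighbour was protein-coding. Of the 415 genes with an end share over 50%, 190 were of this kind. The values of named genes are given below with their neighbour where they have one.

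End share by library was lowest in the 34kn controls. The median share over genes was 14.2%, 14.4% and 14.1% in the 3 34kn controls and 14.9%, 15.0% and 14.6% in the 34kn overexpression libraries. It was 15.9%, 15.4% and 15.5% in the 34kp controls and 15.5%, 15.6% and 16.5% in the 34kp overexpression libraries. The 34kn overexpression libraries all lay above their controls, by 0.589 percentage points in the mean, with p = 0.1 in a two-sided exact permutation test, the smallest p that 3 against 3 libraries allow. Without 34kn control 1 the difference was 0.581 points. The 34kp groups overlapped, with a difference of 0.241 points (exact permutation p = 0.6). The 6 34kp libraries all lay above the 6 34kn libraries, by 1.17 points, with an exact permutation p of 0.00216 and 0.00866 after Benjamini-Hochberg adjustment over 4 such library tests. That test pools the control and overexpression libraries of each experiment. In the control libraries alone the difference was 1.34 points (exact permutation p = 0.1). Over all 12 libraries the share in the first 10% of bins was lower in 34kp by 0.473 points, a difference that did not pass (exact permutation p = 0.0779, adjusted 0.133). The experiments also differ in other ways that follow the same split. Counts outside any bin were 29.5% to 30.9% of the total in 34kn and 31.1% to 32.8% in 34kp. That total is the bin counts plus all rows for reads assigned to no bin. Within 34kp, rows of low quality were 7.54%, 8.35% and 7.14% of that total in the controls and 4.64%, 4.46% and 4.55% with the RNA. The part of these differences in the results was not tested.

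**Figure D1:**
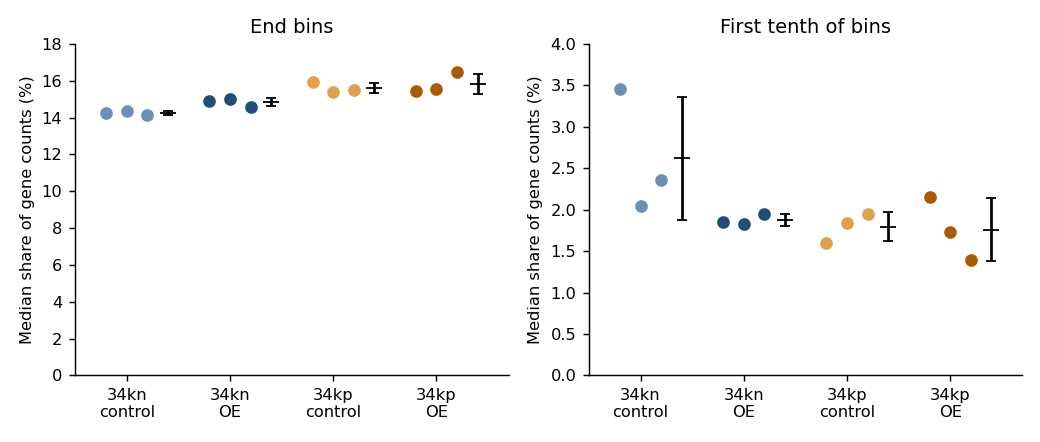
Median share of gene counts (%) in the end bins (left) and in the first 10% of bins (right), 1 point per library and 3 per group, with the group mean and SD in black. The 34kp libraries all lie above the 34kn libraries on the left, and 34kn control 1 lies highest on the right at 3.46%.

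Overexpression of the 34kn RNA was set against its own controls bin by bin, with the log2 change of each bin measured relative to its gene (edgeR's quasi-likelihood test, Benjamini-Hochberg adjusted over all bins). Of 11451 end bins tested, 27 in 23 genes passed an adjusted p of 0.05, 3 higher and 24 lower, which is 0.236% against 0.794% of all 216197 bins tested (0.0222% higher and 0.772% lower). The share of calls was highest at the 5′ end of genes. In the first 10% of each gene 497 of 10238 bins passed lower and 1 higher, which is 4.86%. 34kn control 1, the library with the high share at the 5′ end, had the highest share among the 6 libraries in 21 of the 24 lower end bins. In 19 of the 24 the other 2 controls also lay above all 3 overexpression libraries. Of the 34kp libraries, overexpression library 1 had the highest share in 20 of the 24.

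The smallest adjusted p among end bins belonged to bin 9 of FLNA, which encodes the actin crosslinker filamin A, the ninth bin from the gene's end. It held 600, 223 and 270 counts in the controls and 145, 131 and 159 in the overexpression libraries, or 1.20%, 0.541% and 0.658% of the gene against 0.410%, 0.331% and 0.396%. The groups did not overlap, and the log2 difference was −1.12 (SE 0.20, edgeR adjusted p = 7.12e-05). Bin 4 of ENO1, the glycolytic enzyme enolase, fell from 6430, 3452 and 5036 counts to 2733, 2946 and 3281. Lower bins also lay in AKAP8L, RPS6KB2, RSL1D1, DDB1, AKT2 and FASN. AKAP8L ends over the transcript AC005785.1 (level −0.54 with the 34kn RNA, adjusted p = 0.0868) and RPS6KB2 over its antisense RPS6KB2-AS1 (level −0.68, adjusted p = 0.0714). The higher bins were bin 44 of KPNA2, a nuclear import receptor, bin 29 of SLC25A37, the mitochondrial iron importer of erythroid cells, and bin 4 of POLRMT, the mitochondrial RNA polymerase. The SLC25A37 bin had 199, 302 and 215 counts in the controls and 353, 393 and 377 with the 34kn RNA. Without 34kn control 1, 12 end bins passed, 5 higher and 7 lower, and without 34kn control 2, 222 passed, 104 higher and 118 lower. The number was 12 without control 3 and 3 to 7 without any 1 of the overexpression libraries.

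**Figure D2:**
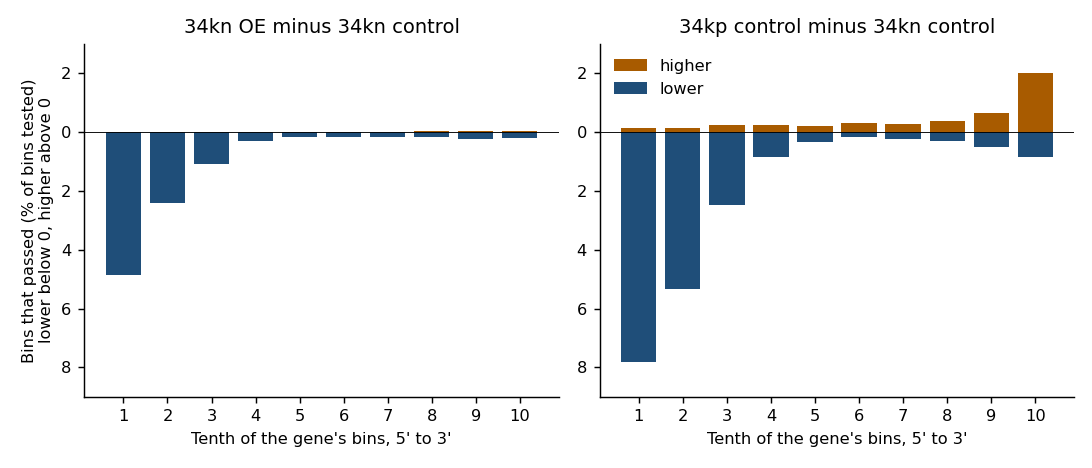
Bins that passed the test of single bins, as a percentage of bins tested, in 10 parts of the gene from 5′ to 3′, with higher bins above 0 and lower bins below it. In the 34kn comparison (left) most calls lie in the first 3 parts, and between the control groups (right) a second group of mostly higher calls appears in the last part.

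Summed per gene, no end share passed in the 34kn comparison. The end bins of a gene were set against all its other bins, and a positive log2 difference means more of the gene at its end. Of 5349 genes tested with edgeR, 0 (0.0%) passed after adjustment, 320 had an unadjusted p under 0.05, the smallest adjusted p was 0.177, and DESeq2 called 1. The median log2 difference was 0.06, and 61.0% of genes lay above 0. With the end and rest counts scaled separately the median was −0.03. Leaving out 34kn control 2 gave 74 genes, 46 higher and 28 lower, and leaving out any other library gave 0.

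The 10 genes of smallest unadjusted p therefore did not pass. RPL6, a protein of the large ribosomal subunit with near-identical copies in the genome that make its counts uncertain, had 3.66%, 4.61% and 3.94% of its counts in 1 end bin in the controls and 5.17%, 5.45% and 5.24% with the 34kn RNA (log2 0.40, SE 0.09, edgeR adjusted p = 0.177). SERPINH1, the collagen chaperone HSP47, had 10.4%, 12.7% and 13.0% against 16.5%, 18.9% and 15.0% (log2 0.57). In both genes the groups did not overlap, as in 17.6% of all genes tested. Log2 differences were 0.56 in HNRNPUL1, 0.48 in HNRNPC, 0.48 in the protease gene CAPN2 and 0.59 in RUSC1. They were −1.15 in AKAP8L, a nuclear scaffold protein, −0.45 in the exportin XPO6, −0.43 in the histone chaperone NAP1L4 and −0.71 in PARN, a poly(A)-specific ribonuclease. Without 34kn control 2 all 10 passed, with edgeR adjusted p from 0.00076 in HNRNPUL1 to 0.0389 in PARN. The 10 were picked by their p in the same libraries, so this gives them no further support.

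The 34kp comparison called no end bin. Of 11761 tested with edgeR, 0 passed, 240 had an unadjusted p under 0.05, and 0.00862% of all 220442 bins passed (0.000907% higher and 0.00771% lower). No end share of 5426 genes passed either (0.0%): 81 had an unadjusted p under 0.05, the smallest adjusted p was 0.755, and DESeq2 called 5. The median log2 difference was 0.04.

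Among the 10 genes with the smallest p in 34kp, 7 have an opposite-strand exon over their end. MIF4GD and MRPS7 are neighbours of each other: MIF4GD, a histone mRNA translation factor, had 13.9%, 13.7% and 14.2% at its end in the controls and 20.3%, 22.6% and 20.6% with the 34kp RNA. MRPS7, a mitochondrial ribosomal protein, had 3.01%, 4.04% and 3.26% against 1.83%, 2.18% and 1.28%. The log2 differences were 0.73 and −0.97, with an edgeR adjusted p of 0.755 for both and DESeq2 values of 0.00579 and 0.0492. RHCE, a Rh blood group antigen, ends over TMEM50A and had 3.16%, 2.33% and 2.49% against 5.98%, 4.64% and 5.85% (log2 1.09). SLC19A1, the reduced folate carrier, ends over COL18A1 and had 8.72%, 6.95% and 7.29% against 4.61%, 4.47% and 4.95% (log2 −0.75). All 4 had groups that did not overlap, as 10.9% of genes did. With the 34kp RNA the level of TMEM50A differed by −0.05 (log2, edgeR adjusted p = 0.773), against the direction of the RHCE end. The level of COL18A1 differed by −0.18 (adjusted p = 0.466). TNFAIP8 (0.89), BUD31 (0.70), FBXL13 (−0.82), TMC6 (−0.44) and UFSP2 (−0.78) were also among the 10, and none of them passed. UFSP2 ends over ANKRD37, whose level was lower with the 34kp RNA as well (log2 −1.07, edgeR adjusted p = 0.00532), and BUD31 ends over PTCD1. The part of these neighbours was not tested.

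The overexpression effects were not shown to differ between the experiments. The interaction, the 34kp effect minus the 34kn effect, was tested in 5485 genes, and 0 (0.0%) passed with edgeR. There were 235 genes with an unadjusted p under 0.05, and DESeq2 called 11. The median was −0.03.

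The control groups differed from each other at the gene ends, and in single bins more often at the 5′ end. Between 34kp and 34kn controls, in a fit of all 12 libraries, 299 of 5485 genes (5.45%) passed with edgeR, 236 with a higher end share in 34kp (4.3%) and 63 with a lower one (1.15%). The median log2 difference over all genes was 0.16. Of the 299, 298 had groups that did not overlap, which 36.4% of all genes did, and 82 differed by 2-fold or more. The split between directions depended on the scaling: with end and rest counts scaled separately the median was 0.00 and 239 genes passed, 77 higher and 162 lower. At the level of single bins 354 of 11901 end bins passed, 250 higher and 104 lower, or 2.97% against 2.23% of all bins (0.611% higher and 1.62% lower). The count of 299 was 129 without 34kn control 1, 142 without 34kn control 3, 97 without 34kp control 1, 127 without 34kp control 2 and 456 without the 34kp overexpression library 1. These controls belong to separate experiments, so anything else that differed between the experiments cannot be told apart from the groups.

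The overexpression libraries of the experiments, which share no library with the controls, gave a second comparison of 34kp with 34kn. In the same fit 181 of 5485 genes passed (3.3%), 130 higher (2.37%) and 51 lower (0.93%) in 34kp. Of these, 87 had also passed in the controls, 29.1% of that list and 48.1% of this one, with the same sign in 87 of 87. Of the 299 genes, 286 kept their sign, against 70.7% of all genes. Genes called higher in the controls had a median log2 difference of 0.74 there and 0.49 in the overexpression libraries, and those called lower had −1.01 and −0.44.

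**Figure D3:**
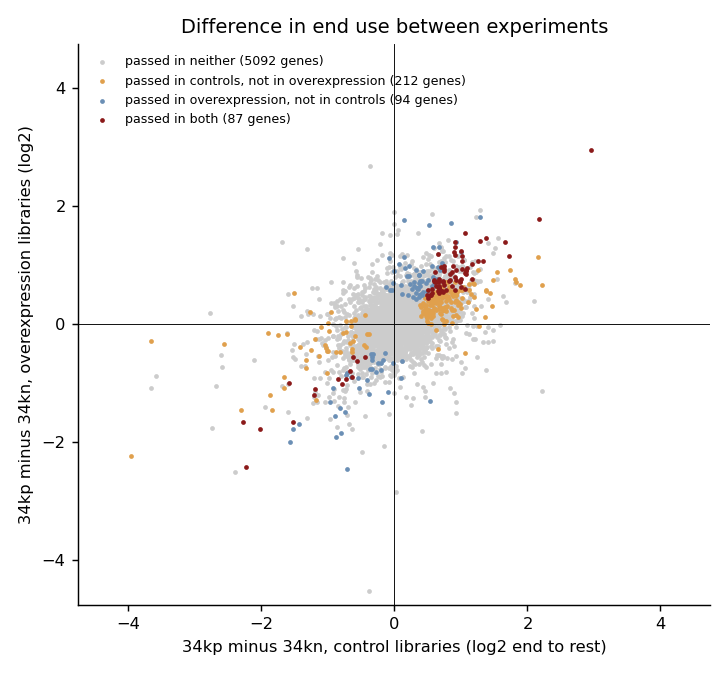
Log2 difference in end against rest between 34kp and 34kn, in the control libraries (x) and in the overexpression libraries (y), 1 point per gene over 5485 genes. The 87 genes that passed in both lie in the quadrants of equal sign, 72 higher and 15 lower in 34kp.

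The largest differences toward more end counts in 34kp were in SEPT8, CTSA, RPL37, COA1, ENTPD3, ELAVL1, GLRX2 and RC3H1. The genes named here are the 8 largest rises and falls among the genes that passed with 50 or more end counts and control groups that did not overlap. The rule was extended to the control groups after their values were seen. Control groups without overlap are thus part of the choice of these rises and falls. Of all genes tested, 36.4% had control groups that did not overlap, and 32.1% had such overexpression groups. The share with all 6 libraries apart was not counted. ELAVL1 encodes HuR, an RNA-binding protein of AU-rich 3′ untranslated regions that is itself made with alternative 3′ ends. Its last bin, 2338 bases long, held 101, 73 and 78 counts in the 34kn controls and 158, 163 and 172 in the 34kp controls, or 1.88%, 1.31% and 1.46% of the gene against 3.72%, 3.57% and 3.76%. The overexpression libraries had 1.47%, 0.973% and 1.54% in 34kn and 3.23%, 3.76% and 3.44% in 34kp. All 6 libraries of 34kp were above all 6 of 34kn, with a log2 difference of 1.28 (SE 0.17, edgeR adjusted p = 3.45e-05) in the controls and 1.42 in the overexpression libraries. An antisense transcript, AC010336.6, runs opposite this bin (chr19:7959123-7960012), with a level difference of 0.68 (log2, adjusted p = 0.0406) between the controls. It lies wholly inside the bin (chr19:7958579-7960916), so with strand use not given their counts cannot be told apart.

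GLRX2, a mitochondrial glutaredoxin, had 18.8%, 26.1% and 19.4% at its last bin in the 34kn controls and 40.7%, 40.5% and 36.9% in the 34kp controls (log2 1.26, edgeR adjusted p = 0.000113). Its end lies over TROVE2, whose level was higher in the 34kp controls too (log2 0.48, adjusted p = 0.00408). RC3H1, or Roquin, an RNA-binding protein that promotes decay of inflammatory mRNAs, had 43.7%, 40.6% and 45.6% against 66.1%, 64.5% and 62.5% (log2 1.26, adjusted p = 0.00947), and with separate scaling it did not pass. SEPT8, a septin, had the largest difference at 2.21, from 0.231%, 0.442% and 0.491% to 2.18%, 1.71% and 1.42%. SEPT8 ends over CCNI2, whose own level was higher in the 34kp controls by 2.65 (log2, adjusted p = 1.75e-05). COA1 (1.38) and CTSA (1.72) rose as well, and CTSA, the lysosomal protective protein, overlaps PLTP. RPL37, at 1.43, has near-identical copies in the genome and missed the threshold in a fit of the 6 control libraries alone (adjusted p = 0.062). ENTPD3, at 1.36, lost its call without any 1 of the 6 control libraries (adjusted p from 0.0641 without 34kp control 2 to 0.162 without 34kp control 1) and with separate scaling (0.102).

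Among genes with a lower end share in 34kp, TAF5, a subunit of the general transcription factor TFIID, had 55.1%, 56.1% and 53.0% in the 34kn controls and 36.3%, 33.5% and 33.7% in the 34kp controls. The overexpression libraries had 56.4%, 55.4% and 54.5% against 33.3%, 38.7% and 38.3%. No library of 34kp reached any of 34kn, and the log2 difference was −1.19 (SE 0.24, edgeR adjusted p = 0.00251) in the controls and −1.09 (adjusted p = 0.0107) in the overexpression libraries. The end of TAF5 lies over ATP5MD. PSMD3, a proteasome regulatory subunit with no opposite-strand exon over its end, had 1.30%, 0.935% and 0.937% in the 34kn controls and 0.455%, 0.399% and 0.537% in the 34kp controls. Its log2 differences were −1.20 (adjusted p = 0.00116) and −1.19 (adjusted p = 0.00123) in the control and overexpression libraries. AARS, the alanyl-tRNA synthetase, had −1.41 in the controls, and its −0.38 in the overexpression libraries did not pass (adjusted p = 0.425).

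Neighbours on the opposite strand moved with several of the lower ends. BAIAP3, with −2.27, ends over TSR3, whose level was lower in the 34kp controls by −0.82 (log2, adjusted p = 0.000724). TBL3, with −1.26, ends over NOXO1 (level −1.49, adjusted p = 1.11e-05), and TRPT1, with −1.33, ends over FERMT3 (level −0.47, adjusted p = 0.0003). TRPT1 lost its call without 34kn control 1 (−0.91, adjusted p = 0.118), 34kp control 1 (0.08) or 34kp control 2 (0.113), and with the last bin alone (−1.21, adjusted p = 0.0718). PLTP, the phospholipid transfer protein, had 24.4%, 24.3% and 21.9% at its end in the 34kn controls and 8.64%, 9.29% and 9.89% in the 34kp controls (log2 −1.58, edgeR adjusted p = 4.52e-05). Its neighbour CTSA had a lower level there (−0.33), while PLTP itself had a higher one (0.75). Over 1026 genes with a single such neighbour and a measured level, the Spearman correlation between the end difference and the neighbour's level was 0.297, a description over genes that share the same libraries and whose overlapping reads may enter both values. Of the 69 among them that passed, 57 had the sign of the neighbour's level, against 59.6% of all, and where the neighbour's level had passed too, 37 of 39 did. SHANK1, with −2.24, has no such neighbour, but lost its call without 34kn control 1 (adjusted p = 0.123), 34kn control 3 (0.0995), 34kp control 1 (0.162) or 34kp control 2 (0.181). Of the 4237 genes with no opposite-strand exon over the end, 185 passed higher and 34 lower (5.17%), and of the 1248 with one, 51 and 29 (6.41%). The part of these neighbours in the result was not tested.

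**Figure D4:**
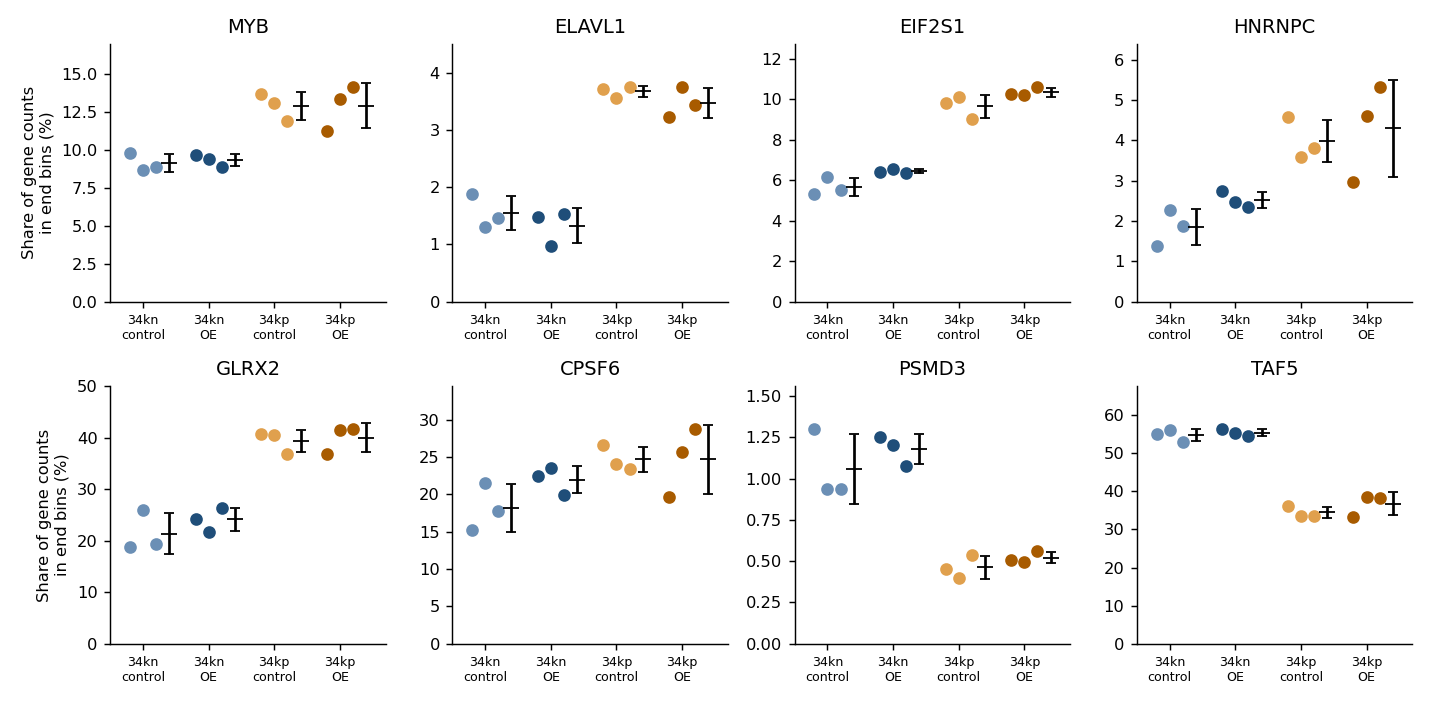
Share of gene counts in the end bins (%) for 8 genes, 1 point per library and 3 per group, with the group mean and SD in black. In 7 of the 8 genes the 34kn and 34kp libraries do not overlap, and in CPSF6 they do. ELAVL1, GLRX2, PSMD3 and TAF5 were named only because their control groups did not overlap, among other conditions. Of all genes tested, 36.4% had control groups that did not overlap, and 32.1% had such overexpression groups.

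MYB, the gene next to the enhancer and a transcription factor of blood progenitors, had 1 end bin, bin 43 of 46, since the last 3 bins had no count. That bin held 615, 684 and 605 counts in the 34kn controls and 723, 772 and 707 with the 34kn RNA, or 9.82%, 8.70% and 8.85% of MYB against 9.63%, 9.42% and 8.89%. In 34kp it held 13.7%, 13.1% and 11.9% in the controls and 11.2%, 13.3% and 14.1% with the RNA. Each eRNA's groups overlapped, with log2 differences of 0.04 (SE 0.12, edgeR adjusted p = 0.997) in 34kn and 0.01 (SE 0.14, adjusted p = 1.00) in 34kp. Between the experiments every 34kp library was above every 34kn library, by 0.57 in the controls (SE 0.13, adjusted p = 0.00789) and 0.54 in the overexpression libraries (adjusted p = 0.0151). Of all genes tested, 36.4% had control groups and 32.1% overexpression groups that did not overlap. The control difference missed the threshold with separate scaling (0.41, adjusted p = 0.0877), without 34kn control 3 (adjusted p = 0.0502) and without 34kp control 1 (adjusted p = 0.0671). MYB level differed by 0.13 between the controls (log2, adjusted p = 0.209). In bulk RNA a change in level per cell and a change in the make-up of the culture cannot be told apart.

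The genes that carry out or answer to 3′ end choice were read from lists, none of which gave a call in end share within either eRNA comparison. Of 30 cleavage and polyadenylation factors 16 could be tested, with a median log2 of 0.08 in 34kn against 0.06 over all genes, and of 39 genes with reported alternative polyadenylation 22, with 0.09. Between the controls, where 5.45% of all genes passed (4.3% higher and 1.15% lower), 2 of the 16 factors did, both higher in 34kp, with a median of 0.17 against 0.16 for all genes. CPSF6, the larger subunit of cleavage factor I, had 15.2%, 21.5% and 17.8% against 26.6%, 24.1% and 23.4% (log2 0.57, edgeR adjusted p = 0.0204). Its adjusted p was 0.193 without 34kn control 1, 0.0822 without 34kn control 3, 0.136 without 34kp control 1, 0.066 without 34kp control 2 and 0.14 with separate scaling. Its end lies over the microRNA gene MIR1279, whose counts were higher in the 34kp controls (log2 0.84, adjusted p = 0.0213). MIR1279 (chr12:69273157-69273218) lies wholly inside the CPSF6 bin (chr12:69269940-69274168), so with strand use not given their counts cannot be told apart. PPP1CA, a phosphatase of the cleavage complex, had 1.03 and ends over RAD9A, whose level went the other way (log2 −0.14, edgeR adjusted p = 0.405). CDC73 (0.87), of the PAF1 elongation complex, and INTS6 (0.82), of the Integrator complex, were the 2 of 14 transcription elongation and termination genes that passed. The median of the 14 was 0.11, below the 0.16 of all genes. INTS6 ends over SERPINE3 (level 1.35, adjusted p = 0.0115), and its adjusted p was 0.0636 without 34kn control 1, 0.0876 without 34kn control 3, 0.199 without 34kp control 1 and 0.0728 without 34kp control 2. TIAL1 (0.83), a U-rich RNA-binding protein, was the 1 of 5 genes of the U1 list, which covers the snRNP that suppresses premature cleavage. The median of the 5 was −0.06. With the last bin alone the TIAL1 difference was 0.26 and did not pass (adjusted p = 0.733).

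In the list of reported alternative polyadenylation 3 of 22 genes passed higher and 1 lower, against 4.3% and 1.15% of all genes, with a median of 0.25. EIF2S1, the alpha subunit of initiation factor 2, had 5.30%, 6.15% and 5.53% in the 34kn controls and 9.81%, 10.1% and 9.01% in the 34kp controls. The overexpression libraries had 6.41%, 6.54% and 6.35% against 10.2%, 10.2% and 10.6%, so that the experiments did not overlap (log2 0.83, SE 0.12, edgeR adjusted p = 4.45e-05 in the controls and 0.75 in the overexpression libraries). Control groups did not overlap in 36.4% of all genes tested, and overexpression groups in 32.1%. ELAVL1 is described above, and CTNNB1, beta-catenin, differed by 0.59, and missed the threshold without 34kn control 3 (adjusted p = 0.0616), with separate scaling (0.43, adjusted p = 0.0655) and with a mean count of 50 or more (0.38, adjusted p = 0.153). DNAJB6, a co-chaperone with alternative long and short forms, was the lower one, at −0.45, and its call was lost in 9 of the 12 fits that left out a library, among them each control (adjusted p from 0.058 without 34kn control 1 to 0.145 without 34kp control 2). In the overexpression libraries RAB10 (0.57) passed, as did ELAVL1 and EIF2S1.

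Splicing factors had the most calls of the 7 lists between the controls, 7 of 18 higher and 0 lower, against 4.3% and 1.15% of all genes, with a median of 0.38 against 0.16. HNRNPC, which binds U-rich RNA, had 1.38%, 2.27% and 1.88% against 4.58%, 3.58% and 3.81% (log2 1.17, SE 0.14, edgeR adjusted p = 2.99e-06), and its near-identical relatives in the genome make its counts uncertain. SRSF7 differed by 0.78, SRSF3 by 0.58, TRA2B by 0.54, RBM25 by 0.53, HNRNPU by 0.50 and the helicase DDX17 by 0.43. HNRNPU ends over COX20 (level 0.08, adjusted p = 0.508) and DDX17 over KDELR3 (level 1.02, adjusted p = 3.11e-05). With the last bin alone TRA2B (0.13, adjusted p = 0.895) and RBM25 (0.43, adjusted p = 0.469) did not pass. With separate scaling HNRNPC and SRSF7 still passed and the other 5 did not. Without 34kn control 1 the adjusted p was 0.176 in TRA2B, 0.214 in RBM25 and 0.0656 in DDX17, and without 34kn control 3 SRSF3 missed the threshold as well (0.0783). Without 34kp control 1 it was 0.074 in SRSF3, 0.22 in TRA2B, 0.189 in RBM25 and 0.144 in DDX17. In the overexpression libraries, where 3.3% of all genes passed, 3 of 18 did, HNRNPC (0.77), HNRNPU (0.44) and HNRNPA1 (0.59). Between the controls MYB passed of 13 erythroid genes, whose median was 0.10. Of 14 Mediator, cohesin and cofactor genes, with a median of 0.14, SMC1A passed (0.46, with an adjusted p of 0.139 without 34kn control 1 and 0.196 without 34kp control 1). SMC1A lost its call in 12 of 22 alternative fits, among them separate scaling (edgeR adjusted p = 0.421). RBM25 lost its call in 13 of 22 such fits and DDX17 in 14 of 21. Since the lists were chosen with results of these data known, these counts support no direction.

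Sequence content moved with the difference between experiments. The 2656 genes with placed ends were split into 4 sets of 664 by the GC content of their end bins. The set of lowest GC content had a median log2 difference of 0.31 between the controls, the next 0.21, then 0.13, and the set of highest GC content −0.02. The lowest set had 52 genes called higher and 6 lower, and the highest 3 higher and 12 lower. By length of the end bins the medians were −0.03, 0.14, 0.20 and 0.30 from the shortest set to the longest. The overexpression libraries had the same order, from 0.27 to 0.00 by GC content and from 0.00 to 0.25 by length. The Spearman correlation of the control difference was −0.343 with GC content and 0.311 with length, over 2656 genes measured in the same libraries. Within 34kn it was −0.135 and 0.068, and within 34kp −0.0611 and 0.0359. Among genes with placed ends, those called higher had a median end length of 2252 bases and a median GC content of 35.8%. Those called lower had 158 bases and 49.7%, and all tested 1336 bases and 42.5%. Ends were placed for 103 of the 236 genes called higher, 26 of the 63 called lower and 2656 of the 5485 tested. The part of GC content and length in the calls was not tested.

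**Figure D5:**
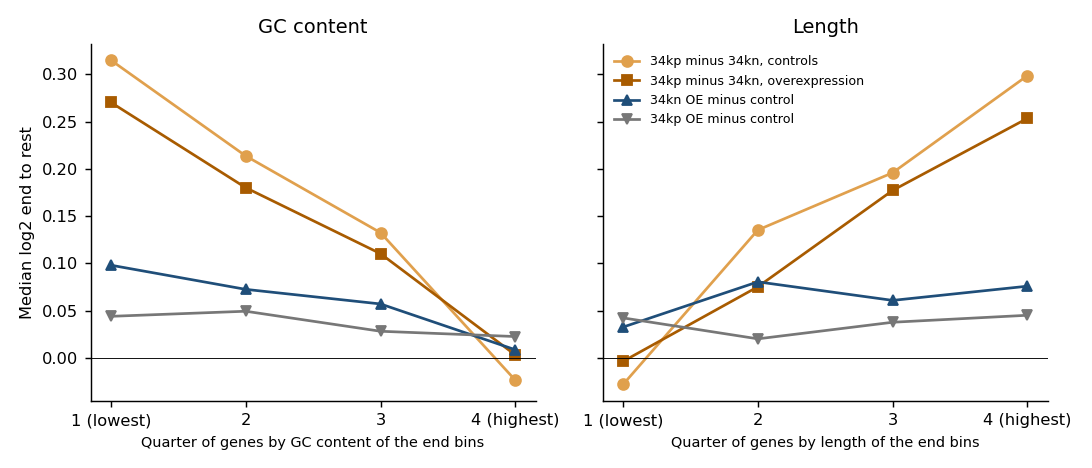
Median log2 difference in end against rest in 4 sets of 664 genes, ordered by the GC content (left) and the length (right) of their end bins, for 4 comparisons. Between the experiments the medians fall with GC content, from 0.31 to −0.02 in the controls, and within each eRNA experiment they stay between 0.01 and 0.10.

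Gene level, the sum of a gene's bin counts, was tested beside end share. In 34kn 0 of 16116 genes passed with edgeR (0.0%), and 3758 had an unadjusted p under 0.05. Without 34kn control 1, 206 genes with end bins passed, and without 34kn control 2, 1505. In 34kp 392 of 16662 genes passed (2.35%, 0.63% higher and 1.72% lower), and among genes with end bins 30 were higher and 110 lower with the RNA. The 34kp count among genes with end bins ran from 15 without control 2 to 468 without overexpression library 3. Between the controls 6415 of 17323 genes passed (37.0%, 18.9% higher and 18.2% lower), 1321 higher and 1211 lower among genes with end bins. Of the 299 genes that differed in end share, 150 also differed in level, 64 higher and 86 lower. ELAVL1 was lower in level in the 34kp controls (−0.41, adjusted p = 0.00021) with a higher end share, and TAF5 was lower in both (−0.57, adjusted p = 0.00122). EIF2S1 differed by 0.01 in level (adjusted p = 0.9).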

How the data were processed

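Counts of reads per exon bin were deposited by the authors as 1 file per library for 12 libraries, as raw counts with no normalization. The submitters' processing notes name Trimmomatic 0.93, STAR 2.7.10a and the build GRCh38. The counting tool, annotation release and use of strand are not given in the sources used here. Reads outside any bin (29.5% to 32.8%) and rows of low quality (4.46% to 10.5%) stayed out of library sizes and tests. These percentages are of bin counts plus all rows for reads assigned to no bin. A read that spans several bins may be counted in each, so sums over bins may exceed read numbers.

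Gene types and symbols came from GENCODE 29 (GRCh38), and bins were placed where a gene rebuilt from it had the same number of bins. As a check, the median correlation within genes between bin length and count was 0.344, and 0.0531 with lengths moved by 1 bin. Sequences are those of GENCODE 29 transcripts. The end bins of a gene (end) and its other bins (rest) were summed and tested with edgeR 4.0.16 in R 4.3.3 (TMM, filterByExpr with a minimum count of 10, robust quasi-likelihood, diffSpliceDGE, Benjamini-Hochberg over all genes tested, threshold 0.05), single bins and gene sums likewise. SE is the log2 difference divided by the square root of F. DESeq2 1.42.0 with a term per library was an alternative. The design text speaks of DEXSeq, which was not run. The tests were tried on simulated counts. Named genes were those with the largest rise and fall that passed with groups that did not overlap, or with the smallest p where fewer than 5 passed. MYB, the 5 highest bins and list genes that passed were added. The members and the 7 lists were chosen with earlier results of these data known. Comparison of the control groups with single bins and gene sums, the overexpression libraries and the opposite-strand overlap were added after the data were seen. Some genes that the naming rule selects are not reported here.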

Additional observations from a re-analysis of the deposited data

How the results depend on the processing

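Another scaling by size factors, no filter on low counts, genes of 20 or more bins, a mean count of 50 or more and the last 10% of bins rounded up left the counts of calls within 1.5 times of those given, for end shares in both eRNA comparisons, their interaction and the controls. With the last bin alone 3036 genes could be tested between the controls, and 227 passed. DESeq2 with a term per library called 1 gene in 34kn, 5 in 34kp, 11 in the interaction and 935 between the controls. With end and rest scaled separately, the MYB difference in 34kn was −0.055 and in 34kp −0.041, and with the last 10% of bins rounded up it was −0.0083 in 34kp. Leaving out 1 library at a time gave 0 to 74 end shares in 34kn, 0 to 1 in the interaction and 97 to 456 between the controls. It gave 3 to 222 end bins in 34kn, 0 to 1 in 34kp, and 0 to 1505 and 15 to 468 genes in level. The MYB difference then ran from 0.00 to 0.09 in 34kn, from −0.071 to 0.11 in 34kp and from −0.11 to 0.068 in the interaction, and the library median in 34kp from −0.0776 to 0.425 points. The cause was not tested.

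Same-numbered libraries did not deviate together (correlations of end ratios from −0.254 to 0.0633), so the numbers were not taken as pairs. With a replicate block 17 end bins passed in 34kn, 24 genes in level in 34kp, 240 end shares between the controls and 0 in each eRNA comparison. Of 33 genes named between the controls, 16 kept their call in every alternative, and 12 lost it with separate scaling. Precision is limited by 3 libraries per group.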
